A study of Danio rerio with 25 samples.

Results

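Chromatin accessibility of the epicardium of injured adult zebrafish hearts was compared with that of larval epicardium, with 6 ATAC-seq libraries of the 25 libraries in the series. In ATAC-seq a transposase, Tn5, inserts adapters where DNA is open, so that counts over a region measure how accessible it is. The adult group comprised 4 libraries of cells carrying the reporter tcf21:BirA-mCherry, taken 3 days after cryoinjury, in which part of the heart is frozen. The larval group comprised 2 libraries of untreated larvae at 5 days post fertilization, whose cells carried tcf21:H2B-Dendra2. Both populations were purified by FACS, and the libraries were assigned by their labels. Stage, injury and reporter construct differ together between these groups and cannot be told apart. In both constructs tcf21 sequences drive the reporter, so the cells sorted are those in which these sequences are active. The labels give neither the age of the adults nor the number of animals behind a library, and p-values therefore measure the spread between these libraries, which may be technical.

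The epicardium is the outer cell layer of the heart. It spreads over the heart early in life, supplies fibroblasts and mural cells after an epithelial-to-mesenchymal transition (EMT), and secretes retinoic acid, growth factors and matrix. In zebrafish it becomes active again after injury, and Tcf21, Tbx18, Wt1 and the retinoic acid enzyme Aldh1a2 are its usual markers. A peak is a region with more transposase cuts than its surroundings, and peaks away from gene starts often contain enhancers, whose use differs between stages and cell types more than that of promoters.

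Total counts in peaks were 1070024, 2000665, 2611588 and 3817831 in the cryoinjury libraries 1 to 4, and 941610 and 755606 in the larval libraries 1 and 2. Peaks with 3 counts or fewer made up 0.0888% to 12.3% of all peaks in cryoinjury libraries, and 20.4% and 30.8% in larval libraries. Low values are therefore less certain in the larval group. The lowest deposited count is 1 in every library, so a count of 1 may stand for 1 read or for none. All pairs of libraries within a group differed by more than sampling noise (chi-square 3.14 to 4.66 times its degrees of freedom), and each counted as 1 sample. Levels are given as CPM, counts relative to a TMM-scaled library size. A log2 fold change is adult cryoinjury over larval epicardium, and "called" means an adjusted p under 0.05 in edgeR's quasi-likelihood test over all 61883 peaks tested.

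Most of the differences were lower values in the injured adult. Of 61883 peaks, 2463 were called higher (3.98%) and 6222 were called lower (10.1%) in cryoinjury than in larval epicardium, which is 14% in either direction, and the median log2 fold change over all peaks was 0.07. This balance rests on the scaling: when libraries were scaled by total count, the median moved to 0.41, 5317 peaks were called higher (8.59%) and 3828 lower (6.19%), and higher calls were 58.1% of all calls, against 28.4% with TMM. The higher calls also rest on having both larval libraries, since 583 peaks were called higher and 4086 lower without larval library 1, and 473 higher and 3413 lower without larval library 2. Without cryoinjury library 3, 1635 were called higher and 4730 lower. At called peaks, the median of the mean level was 9.59 CPM in cryoinjury and 36.4 CPM in larval epicardium for lower calls. It was 17.6 CPM in cryoinjury and 3.18 CPM in larval epicardium for higher calls, so the higher calls sat close to the depth limit of the larval libraries. The 6 libraries did not overlap between the groups at 19.5% of all peaks in the higher direction and 19.8% in the lower one.

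The other libraries of the series gave levels at the same peaks that did not enter the fold changes. They did share the fit, and so the filter and the estimate of spread behind the calls: with only the compared groups fitted, 3420 peaks were called higher and 6347 lower. Adult sham epicardium carries the adult construct, and tbx18 larval epicardium carries tbx18:myr-Citrine. All larval libraries of the series, also for RNA, were from 5 days post fertilization, and all adult ones from 3 days after surgery. At the peaks called lower, the median level was 11.7 CPM in sham epicardium and 23.8 CPM in tbx18 larval epicardium. At the peaks called higher, it was 15.9 CPM in sham epicardium and 5.86 CPM in tbx18 larval epicardium. Sham against tbx18 larval epicardium compares no library of the first comparison, and there 21.3% of all peaks were called higher and 16.1% lower. Of the 2463 peaks called higher in cryoinjury, 1248 (50.7%) were called higher and 89 (3.61%) lower in sham, and they made up 9.48% of all higher calls in sham. Of the 6222 called lower in cryoinjury, 2948 (47.4%) were called lower and 1105 (17.8%) higher in sham, and they made up 29.6% of all lower calls in sham.

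The same peaks were read in larval epicardium and in other larval heart cells. In tbx18 larvae, epicardium against non-epicardium called 13.8% of all peaks higher and 13.1% lower. At the 6222 peaks lower in cryoinjury, 2210 (35.5%) were higher in tbx18 epicardium than in tbx18 non-epicardium and 444 (7.14%) were lower. At the 2463 peaks higher in cryoinjury, 140 (5.68%) were higher in tbx18 epicardium and 343 (13.9%) were lower. These contrasts have no library in common with cryoinjury against tcf21 larval epicardium, though 1 fit gave both.

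The RNA of the gene annotated to a peak moved less clearly. Across 20745 genes, 12.1% were called higher and 26% lower in cryoinjury than in larval epicardium, from 3 libraries a group. Adult nuclei were pulled down for RNA whereas larval cells were sorted, so purification differs there as well. Of all tested peaks, 19% had a gene called higher in RNA and 19.8% a gene called lower, counted over the 47590 peaks whose gene was tested. The shares were 21.4% and 16.7% for peaks called higher, and 16.9% and 24.4% for peaks called lower. Each class of peaks thus stood within 5 percentage points of the background in RNA.

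Fold changes were higher at peaks near gene starts than at distal peaks, while the balance of calls within a class rested on the scaling. Among the 12756 promoter peaks 5.38% were called higher and 5.01% lower, with a median log2 fold change of 0.32. Among 26539 intron peaks 3.78% were called higher and 11.7% lower, with a median of -0.04, and among 15387 intergenic peaks the shares were 3.46% and 12.7%, with a median of -0.06. Peaks in 5' UTRs had 5.28% higher and 2.94% lower calls. With total-count scaling promoters had 13.4% higher and 2.85% lower calls (median 0.65), introns 7.36% and 7.32% (median 0.31), and intergenic peaks 7.06% and 8% (median 0.28). Higher calls then also outnumbered lower ones in 3' UTRs (11.6% and 4.5%), at transcription ends (8.24% and 5.51%) and in exons (6.35% and 3.91%). Promoters made up 20.6% of all tested peaks, 27.9% of higher calls (Wilson 95% interval 26.1% to 29.7%) and 10.3% of lower calls (9.54% to 11%). These intervals take peaks as independent and hold no spread between libraries, so they are too narrow for a difference between the groups. With distance from the nearest transcription start the share of lower calls was 5.33% up to 1 kb, 11% from 1 to 10 kb, 12.2% from 10 to 50 kb and 12% beyond.

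**Figure D1:**
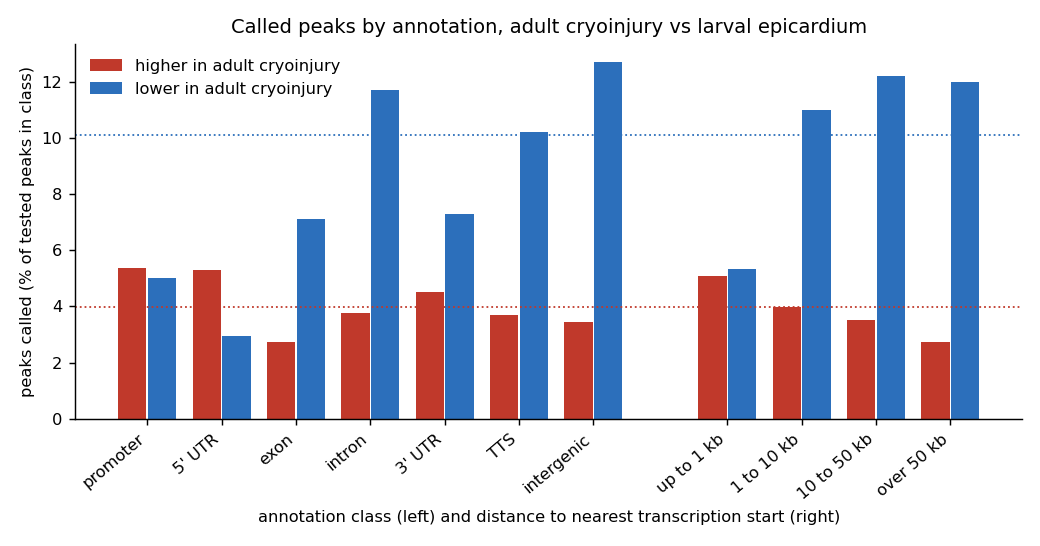
Share of tested peaks called higher (red) and lower (blue) in adult cryoinjury than in larval epicardium, in % of the peaks of each class, by annotation class and by distance to the nearest transcription start. Dotted lines mark the shares over all peaks, 3.98% and 10.1%. With this TMM scaling promoters and 5' UTRs were the annotation classes in which higher calls outnumbered lower ones. With total-count scaling intergenic peaks were the only annotation class in which they did not, and introns were nearly even (7.36% higher and 7.32% lower). By distance, lower calls then outnumbered higher ones from 10 to 50 kb (7.13% higher and 7.56% lower) and over 50 kb (5.82% and 7.99%).

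The same difference appeared in the libraries taken one at a time. Peaks annotated as promoters held 28.71%, 30.9%, 33.24% and 28.11% of the counts in the 4 cryoinjury libraries, and 24.36% and 25.12% in the 2 larval libraries. The mean was 30.2% ± 2.33 in cryoinjury and 24.7% ± 0.537 in larval epicardium (SD, n = 4 and 2), and the groups did not overlap (exact two-sided permutation test, p = 0.0667, the smallest that 4 against 2 libraries allow). All peaks up to 1 kb from a start held 37.4% ± 2.71 of the counts in cryoinjury and 31.4% ± 0.481 in larval epicardium (SD, n = 4 and 2; exact two-sided permutation test, p = 0.133). The median log2 fold change of promoters minus that of other peaks was 0.34 in the fit and ranged from 0.07 to 0.59 over the 8 pairs of 1 cryoinjury and 1 larval library. The promoter share was not low in all larval libraries of the series, since tbx18 larval epicardium had 30.27% and 31.35%, against 32.42% and 32.74% in sham epicardium.

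Calls followed the base composition of the peaks. Among the 15608 peaks with the lowest GC content (17% to 39.3%) 6.14% were called higher and 4.06% lower, with a median log2 fold change of 0.44. Among the 14809 peaks with the highest GC content (46.1% to 69.3%) 2.09% were called higher and 19.3% lower, with a median of -0.39. The mean GC content weighted by counts was 43.21%, 42.99%, 43.12% and 42.95% in the cryoinjury libraries, and 44.27% and 44.84% in the larval libraries, again without overlap (exact two-sided permutation test, p = 0.0667). When a GC trend was removed from each library, the low-GC peaks had 2.47% higher and 7.3% lower calls, the high-GC peaks had 5.21% higher and 10.5% lower calls, and the totals were 2156 higher (3.48%) and 5454 lower (8.81%). Promoters kept a median of 0.29 after this step, against 0.32 before it. The medians of 4 GC bins lay between 0.02 and 0.11, near 0 because the step removes the trend with GC. The part of library preparation in the GC trend was not tested.

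**Figure D2:**
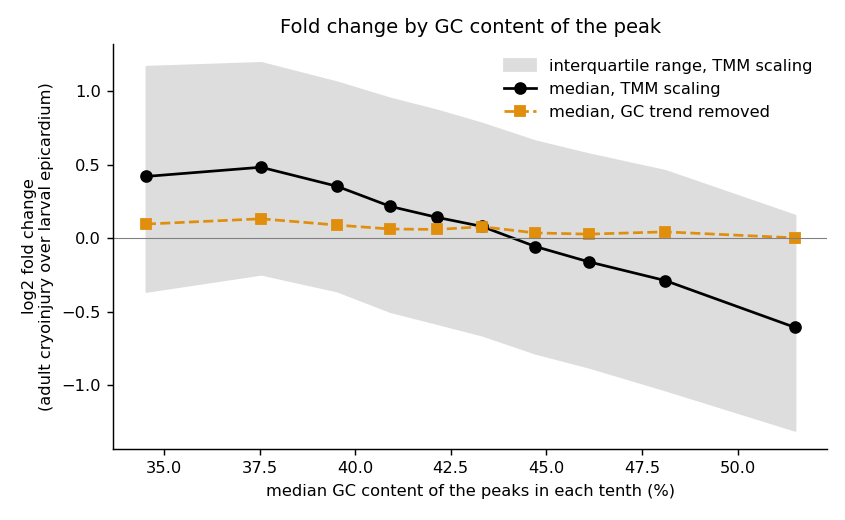
Median log2 fold change of adult cryoinjury over larval epicardium (y axis) against the median GC content in % (x axis) of the tested peaks in bins of rising GC content. The black line and grey band are the median and interquartile range with TMM scaling, and the orange dashed line is the median after a GC trend was removed from each library. The black line runs downward with GC. The orange line stays near 0, which the removal itself brings about.

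By chromosome, higher calls ranged from 2.83% of the peaks of chromosome 10 to 5.91% of those of chromosome 9. Chromosome 4 had the lowest median log2 fold change, -0.22. The part of that chromosome beyond its middle, known in zebrafish for its repeats and late replication, had a median of -0.46 with 2.18% higher and 15.4% lower calls over 1374 peaks. The part before it had a median of -0.02, and all other chromosomes together had 0.09. The far part stayed at -0.44 after the GC trend was removed, and its lower calls were then 9.53%, against 8.73% on the other chromosomes.

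The longest run of neighbouring peaks called higher lay beside tcf21 itself. It held 15 consecutive peaks over 75.9 kb of chromosome 23, whereas no other run of higher calls was longer than 3 peaks. Extended over gaps of at most 5 peaks, the stretch covered chr23:31464634-31660627 (GRCz10), 196.0 kb with 35 tested peaks annotated to lca5, sh3bgrl2, zgc:153284, rps12, eya4, tcf21 and tbpl1. Of these, 25 were called higher and none lower, and 34 had a positive log2 fold change (median 2.73, from -0.18 to 5.62). Since the stretch was found from these calls, its values in this comparison are a description only. The 12 peaks on each side of it had a median of -0.21, with 0 called higher and 1 called lower of 24. Across all alternative settings 22 to 29 of the 35 peaks were called higher and none lower.

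Levels in the stretch separated adult from larval libraries of every kind. The median over the 35 peaks was 76.7, 63.7, 63.8 and 80.5 CPM in the cryoinjury libraries, and 14.5 and 13.5 CPM in the tcf21 larval epicardium libraries. In libraries outside the contrast that found it, the median was 56.6 and 72.5 CPM in sham epicardium, and 4.02 and 4.11 CPM in tbx18 larval epicardium. Against tbx18 larval epicardium, 34 of the 35 peaks were called higher in sham (median 3.79 on the log2 scale), while the flanking peaks had a median of -0.43. Non-epicardial cells had 9.98 and 5.83 CPM in tcf21 larvae, and 2.88 and 2.11 CPM in tbx18 larvae. In the flanks the cryoinjury libraries had 11.9, 9.38, 10 and 9.57 CPM and the tcf21 larval libraries 12.3 and 12.8 CPM. With only the 6 libraries of cryoinjury and tcf21 larval epicardium in the fit, 25 of the 35 peaks were again called higher.

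No peak of the stretch was near the limit of detection in cryoinjury. The lowest count of any of the 35 peaks was 41, 72, 80 and 232 in the cryoinjury libraries, whereas 5 and 12 of the 35 peaks had 3 counts or fewer in the larval libraries. The fold change was largest where larval accessibility was lowest (Spearman's rho -0.94 across the 35 peaks between log2 fold change and larval CPM, a description, since the larval level enters both). The named peak with the largest increase was an intron peak of sh3bgrl2, a small SH3-binding protein, at chr23:31479880-31480380. It had 138, 111, 127 and 135 CPM in cryoinjury, against 3.35 and 1.5 CPM in larval epicardium, where it rested on 4 counts in all. The exact 95% counting interval of the ratio of counts was 19.5 to 184, which takes every count as an independent read. The promoter peak of eya4, a transcriptional coactivator and phosphatase, had 75.9, 50.2, 57.1 and 74.9 CPM in cryoinjury, against 5.59 and 3.00 CPM in larval epicardium (log2 fold change 3.84 ± 0.56, adjusted p = 2.79e-06).

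At tcf21 the difference was smaller. The promoter peak had 41.5, 56.7, 36.1 and 62.1 CPM in cryoinjury, against 25.7 and 36.0 CPM in larval epicardium, and did not pass the test (0.69 ± 0.40, adjusted p = 0.247). The most accessible tcf21 peak, in an intron, had 445, 318, 234 and 268 CPM in cryoinjury, against 157 and 198 CPM in larval epicardium. Of the 8 peaks annotated to tcf21, 2 annotated to its transcription end were called higher, with log2 fold changes of 2.67 ± 0.43 and 2.03 ± 0.40. The groups did not overlap at either of these.

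RNA of the genes of the stretch did not move as one block. sh3bgrl2 had 133, 187 and 195 CPM in cryoinjury RNA, against 4.6, 3.6 and 1.4 CPM in larval RNA (log2 fold change 5.74 ± 0.59, adjusted p = 1.53e-06). lca5, the zebrafish counterpart of a human ciliary disease gene, was also higher (3.82 ± 0.74, adjusted p = 0.000839), and so was rps12, a ribosomal protein gene (1.55 ± 0.42, adjusted p = 0.00741). eya4 (1.38, adjusted p = 0.0566), zgc:153284 (2.16, adjusted p = 0.114), tcf21 (-0.86, adjusted p = 0.27) and tbpl1 (-1.02, adjusted p = 0.13) did not pass the test. tcf21 RNA was 140, 111 and 131 CPM in cryoinjury, and 281, 91.7 and 318 CPM in larval epicardium, so the groups overlapped. Adult tcf21 libraries, sham and cryoinjury alike, carry another construct than the larval ones, and the labels do not say which genomic sequence a construct contains. Construct and stage cannot be told apart at this stretch. Without its peaks, 2438 peaks were called higher in the whole comparison.

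**Figure D3:**
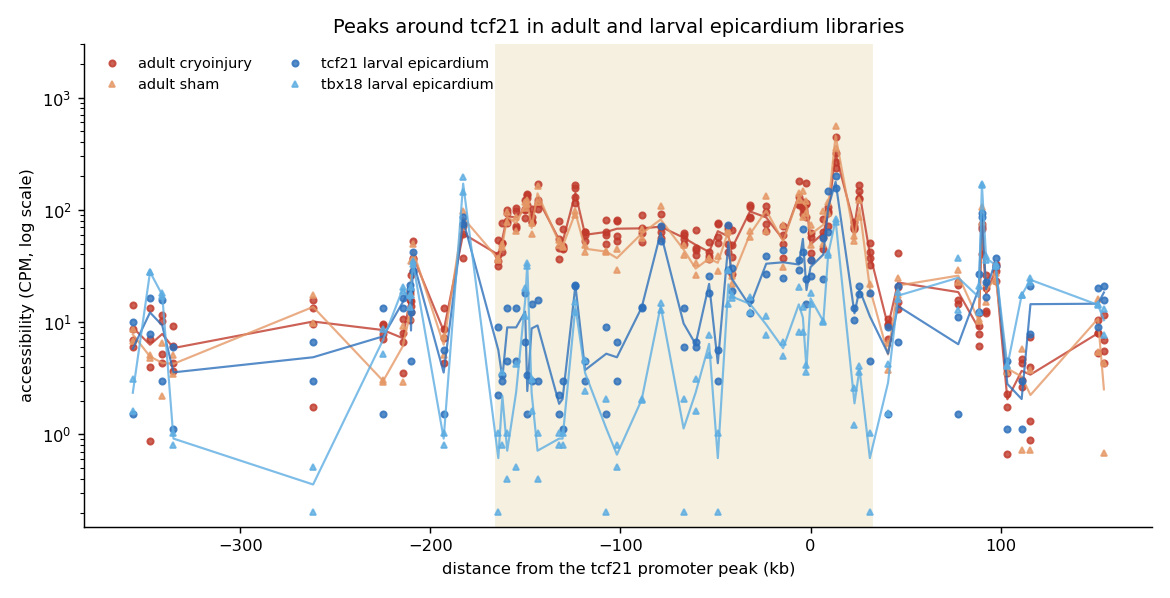
Accessibility in CPM (log scale, y axis) of single peaks against their distance in kb from the tcf21 promoter peak (x axis), with points for libraries and lines for group means, and the stretch of 35 peaks shaded. Both adult groups lie above both larval groups over most of the shaded stretch and mingle with them in the flanks.

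Outside that stretch, the higher peaks with the largest fold changes were scattered over genes of different kinds and all rested on few larval counts. NAV1 (2 of 2), named for a microtubule-associated neuron navigator, had an intron peak with 21.2, 19.6, 35.4 and 16.1 CPM in cryoinjury, against 1.12 and 1.5 CPM in larval epicardium, which is 1 count in each larval library. The ratio of counts was 17.5, with an exact 95% counting interval of 4.79 to 145. This interval and those below take every count as an independent read, and a count of 1 may stand for none. The ratio was 20.1 (5.52 to 167) for an intron peak of znf1061, of a large zinc finger family whose members may share reads. Ratios at an intron peak of pim2, a serine/threonine kinase, and at the promoter of rtn4rl2a, a Nogo receptor relative, were 18.8 (5.16 to 156) and 15.4 (4.2 to 128). A peak near icn, an S100-type calcium-binding protein, had 37, 25.7, 34.4 and 31.5 CPM in cryoinjury, against 2.24 and 1.5 CPM in larval epicardium (ratio 16.5, 5.59 to 80.2), and the icn RNA was also higher (log2 fold change 6.80, adjusted p = 1.33e-05).

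Some of these peaks were also higher in sham than in tbx18 larval epicardium and some were not called there. The peaks of NAV1 (2 of 2) and spef2, a sperm flagellar protein gene, had log2 fold changes of 5.53 and 4.43 in sham (adjusted p = 1.67e-06 and 1.02e-06). The pim2 peak had 0.86 (adjusted p = 0.176) and the promoter peak of cnpy1, a gene of FGF signalling in the zebrafish brain, had 0.32 (adjusted p = 0.565). The cnpy1 peak was tight in cryoinjury at 20.3, 21.4, 18.7 and 20.8 CPM, against 1.12 and 1.5 CPM in larval epicardium. The peak near tspan2a, a tetraspanin, was no longer called without larval library 1 (adjusted p = 0.0507). RNA went the other way at pim2 (-5.82, adjusted p = 2.5e-05) and rtn4rl2a (-5.06, adjusted p = 0.0141).

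The lower peaks with the largest fold changes were strongly accessible in both larval libraries and far less so in all 4 adult ones. Several adult values were close to those of an ordinary peak, since the median of the mean level over all tested peaks was 9.9 CPM in cryoinjury. It was 9.54 CPM in larval epicardium. An intron peak of igf2bp1, an RNA-binding protein of embryonic and tumour cells, at chr3:23433452-23433952 had 0.882, 0.872, 0.668 and 2.47 CPM in cryoinjury, against 77.2 and 67.6 CPM in larval epicardium (log2 fold change -5.61 ± 0.43, adjusted p = 2.03e-12). Its relative igf2bp3 had an intron peak with 1.76, 2.18, 1.67 and 3.5 CPM in cryoinjury, against 63.7 and 125 CPM in larval epicardium (-5.21 ± 0.41), and a promoter peak with 7.06, 5.67, 5.68 and 5.56 CPM in cryoinjury, against 74.9 and 91.6 CPM in larval epicardium (-3.82 ± 0.36). All 3 peaks were also lower in sham than in tbx18 larval epicardium, with log2 fold changes of -4.36, -4.36 and -3.94. The igf2bp1 RNA was lower (-3.43, adjusted p = 0.000375) and the igf2bp3 RNA did not pass the test (-1.04, adjusted p = 0.12).

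Developmental and signalling genes followed. An intron peak of cdx4, a caudal homeobox gene of the posterior embryo, had 6.17, 8.29, 2.34 and 4.94 CPM in cryoinjury, against 76 and 138 CPM in larval epicardium (-4.34 ± 0.40), and cdx4 RNA was lower (-7.92, adjusted p = 0.00371). An intron peak of dab1a, an adaptor of reelin signalling, had 4.41, 7.41, 5.01 and 3.91 CPM in cryoinjury, against 99.5 and 203 CPM in larval epicardium (-4.86 ± 0.39), with lower RNA (-5.59, adjusted p = 0.000583). A peak near PDGFD, a platelet-derived growth factor, had 2.65, 9.16, 5.01 and 6.17 CPM in cryoinjury, against 104 and 159 CPM in larval epicardium (-4.43 ± 0.38), with lower RNA (-5.58, adjusted p = 0.000142). In tbx18 larvae the dab1a and cdx4 peaks were higher in epicardium than in non-epicardium (5.80 and 3.52), and the PDGFD peak was so by 1.12 (adjusted p = 0.0396).

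The remaining peaks in the 10 largest decreases belonged to housekeeping and other genes. They lay at aifm5, of the apoptosis-inducing factor family (-5.89 ± 0.51), ddx3b, an RNA helicase (-4.66 ± 0.61), cry1bb, a cryptochrome (-4.65 ± 0.34), dynlrb1, a dynein light chain (-4.45 ± 0.42), and ipo11, an importin (-4.43 ± 0.47). Adjusted p-values of the 10 ranged from 1.25e-12 to 3.81e-07, and none of them lost its call under any alternative. Of these 10 peaks, the ddx3b peak was not lower in sham (1.35, adjusted p = 0.17). One of its cryoinjury libraries, with 8.82 CPM, stood above the other 3, with 0.436, 0.668 and 1.23 CPM, and the larval libraries had 51.4 and 49.6 CPM. At ddx3b and cry1bb the RNA was higher in cryoinjury (2.95 and 1.84, adjusted p = 0.000124 and 0.0299).

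**Figure D4:**
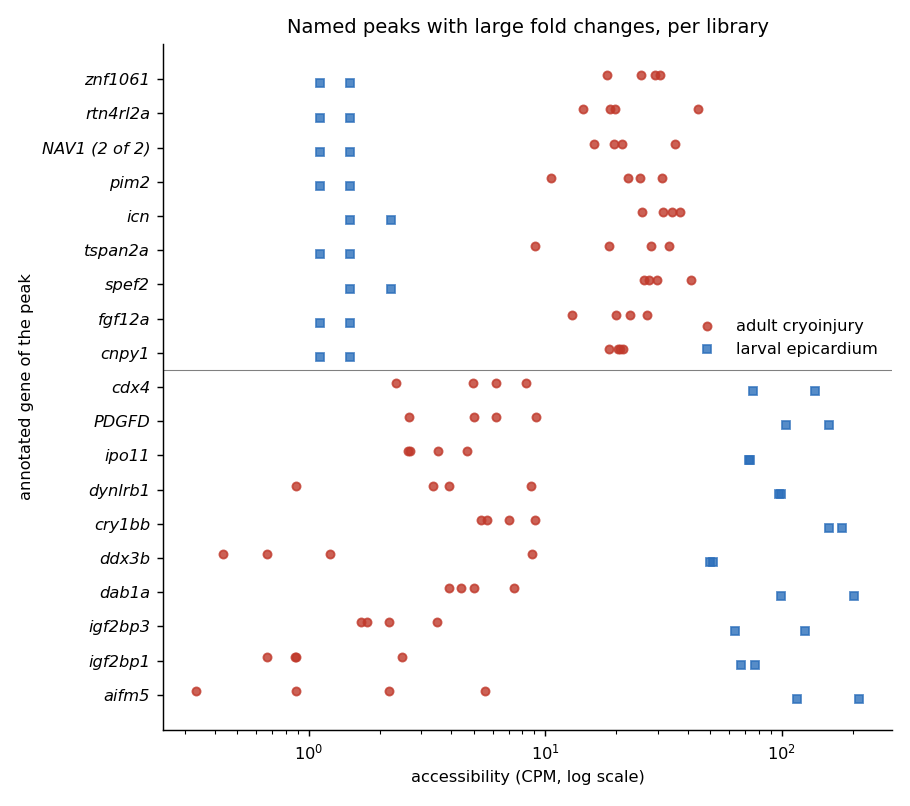
CPM (log scale, x axis) of named peaks outside the chromosome 23 stretch with large fold changes, 1 point per library, with adult cryoinjury in red and larval epicardium in blue. Peaks above the line were called higher in cryoinjury and peaks below it lower. The groups overlap at none of them because the naming rule required this. The larval points of the upper peaks stand for 1 or 2 counts each.

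Among genes with several called peaks, those of the chromosome 23 stretch led the higher side: eya4 with 6 of 10 peaks, zgc:153284 with 5 of 5, and sh3bgrl2 and lca5 with 4 of 4 each. Elsewhere the highest number was 4, at macf1a (of 36 peaks), a linker of microtubules and actin, tsc22d3 (of 30), a glucocorticoid-induced leucine zipper gene, fbxo41 (of 11), the sialyltransferase gene st6gal2a (of 8), the lamin gene lmna (of 9), eml1 (of 7) and rgs19 (of 11). Lower calls also occurred there, with 2 at macf1a and 1 each at tsc22d3, eml1 and rgs19. Over all peaks 3.98% were called higher and 10.1% lower, and a gene with many peaks has more chances of a call. With the GC trend removed, 4 peaks were still called higher at tsc22d3, fbxo41 and lmna, 3 at macf1a, 2 each at st6gal2a and eml1, and 1 at rgs19. RNA was higher for lmna (5.21, adjusted p = 4.47e-06), macf1a (5.03, adjusted p = 2.01e-06), st6gal2a (3.87, adjusted p = 0.0014) and eml1 (1.96, adjusted p = 0.02).

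On the lower side, 9 peaks each were called at znf423 (of 14), a zinc finger transcription factor gene, gse1 (of 36), the RNA-binding protein gene celf2 (of 31), bahcc1 (of 34) and cdh2 (of 16), which encodes N-cadherin. chd7 (of 18), a chromatin remodeller gene, and maml3 (of 23), a Notch coactivator gene, had 8 each. At celf2, 2 other peaks were called higher. Ranking by number of calls favours genes with many peaks, and 10.1% of all peaks were called lower. An intron peak of znf423 had 3.53, 4.8, 3.01 and 8.44 CPM in cryoinjury, against 49.2 and 52.6 CPM in larval epicardium (-3.25 ± 0.43, adjusted p = 5.59e-07). cdh2 RNA and bahcc1 RNA were higher in cryoinjury (1.75 and 1.83, adjusted p = 0.00487 and 0.00705). With the GC trend removed, 8 cdh2 peaks, 7 celf2 peaks and 7 bahcc1 peaks were still called lower, but 3 znf423 peaks. With total-count scaling 6 peaks each were called lower at znf423, gse1, celf2, cdh2 and chd7, 5 at bahcc1 and 4 at maml3.

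Lower calls, which were 10.1% of all peaks against 3.98% for higher calls, stood in runs of neighbours more often. A larger share of calls by itself gives more and longer runs. The runs were not compared with calls placed at random. Runs of 3 or more neighbouring peaks held 770 of the 6222 lower calls (12.4%), against 63 of the 2463 higher calls (2.56%). The longest lower run, 18 peaks at chr19:42950103-42974576 annotated to zgc:123103, had a median of 56.1 CPM in cryoinjury and 189 CPM in larval epicardium. It had 77.9 CPM in sham, 145 CPM in tcf21 larval non-epicardium and 15.3 CPM in tbx18 larval epicardium, and none of its peaks was called lower in sham than in tbx18 larval epicardium. Other runs lay in repeated gene families, with 11 peaks among U1 snRNA genes at chr4:58024037-58148415, 9 among pimr58 copies at chr5:41737907-41810005 and 8 at 5.8S rRNA and otud4 copies at chr5:816769-837665, which had 555 CPM in cryoinjury and 3270 CPM in larval epicardium. Counts on near-identical copies are uncertain, and none of these runs was called lower in sham. The 14 lower peaks of si:ch211-220f16.1 dropped to 2 with the GC trend removed and to 4 with total-count scaling.

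A run at chr22:11144129-11180592, annotated to si.dkey.277i15.2, behaved otherwise. Its 8 peaks had a median of 8.77 CPM in cryoinjury and 47.3 CPM in larval epicardium, and all 8 were also lower in sham (9.08 CPM) than in tbx18 larval epicardium (34.6 CPM). Of the 22 peaks of that gene, 13 were called lower in cryoinjury.

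The epicardial markers were accessible in both groups, with summed levels over their 44 peaks of 1080 to 1610 CPM in cryoinjury and 1110 and 1370 CPM in larval epicardium. These sums include the 8 tcf21 peaks, all inside the chromosome 23 stretch, and do not show the level of the other markers. A single tcf21 intron peak had 445, 318, 234 and 268 CPM in cryoinjury, against 157 and 198 CPM in larval epicardium. Of the 44 peaks, 3 were called higher (6.82%, against 3.98% of all peaks) and 8 lower (18.2%, against 10.1%), with a median log2 fold change of -0.34, and outside the chromosome 23 stretch 1 of 36 was higher and 8 were lower. With total-count scaling 5 were higher and 5 lower of the 44, when 8.59% of all peaks were called higher and 6.19% lower. Lower calls then no longer outnumbered higher ones in this list. They were fewer without larval library 1 or 2, as over all peaks. The wt1a promoter peak had 30, 37.1, 23.4 and 27.8 CPM in cryoinjury, against 86.1 and 90.1 CPM in larval epicardium (-1.58 ± 0.33, adjusted p = 0.000782), and wt1a RNA was lower too (-2.17, adjusted p = 0.0133). The wt1a promoter call was lost in edgeR's test of a minimum log2 fold change of 1 (adjusted p = 0.185). That promoter was 5.16 higher on the log2 scale in tbx18 epicardium than in tbx18 non-epicardium, and it did not pass the test between sham and tbx18 larval epicardium (0.23, adjusted p = 0.667).

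At aldh1a2, 4 of 14 peaks were called lower and none higher. An intergenic peak near it had 14.1, 9.59, 10 and 14.6 CPM in cryoinjury, against 61.5 and 84.1 CPM in larval epicardium (-2.58 ± 0.34), while the aldh1a2 promoter peak (-0.92 ± 0.52, adjusted p = 0.237) and RNA (-0.78, adjusted p = 0.217) did not pass the test. Of the 7 wt1b peaks 2 were called lower and 1 higher, and wt1b RNA was lower (-3.52, adjusted p = 0.00631). In introns of wt1b, 1 peak was lower (5.29, 3.49, 4.34 and 2.06 CPM in cryoinjury, against 21.2 and 33 CPM in larval epicardium). Another intron peak of wt1b was called higher (1.89, adjusted p = 0.0398), which was lost without larval library 1 or 2 (adjusted p = 0.264 and 0.165), and without cryoinjury library 1, 2 or 4 (0.0622, 0.0671 and 0.0627), and also with DESeq2 (0.0506), with its size factors in edgeR (0.0508) and with the GC trend removed (0.093). None of the 11 tbx18 peaks was called, and its promoter had 43.2, 38.8, 40.4 and 29 CPM in cryoinjury, against 38 and 78.1 CPM in larval epicardium (-0.61 ± 0.36, adjusted p = 0.257). That value turned to 0.02 once the GC trend was removed. In bulk samples such as these, fewer cells of a type and less accessibility per cell cannot be told apart.

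Markers of other heart cells were read against the 3.98% higher and 10.1% lower calls of all peaks. Of 55 cardiomyocyte peaks none was called higher and 7 lower (12.7%), of 85 endothelial peaks 1 (1.18%) and 5 (5.88%), of 39 erythrocyte peaks 0 and 3 (7.69%), and of 41 leukocyte peaks 3 (7.32%) and 1 (2.44%). With total-count scaling the cardiomyocyte list had 1 higher and 3 lower calls, the endothelial list 3 and 3, the erythrocyte list 1 and 2, and the leukocyte list 7 and 1. In that setting 8.59% of all peaks were called higher and 6.19% lower. Lower calls of cardiomyocyte peaks were fewer whichever of the 6 libraries was left out. Those of endothelial peaks were fewer with either larval library left out, as over all peaks. Those of erythrocyte peaks were fewer without larval library 2. Summed levels were 406 to 484 CPM in cryoinjury and 635 and 718 CPM in larval epicardium for cardiomyocyte peaks, 643 to 747 CPM in cryoinjury and 916 and 948 CPM in larval epicardium for endothelial peaks, and 278 to 331 CPM in cryoinjury and 328 and 466 CPM in larval epicardium for erythrocyte peaks. Leukocyte peaks had 439 to 647 CPM in cryoinjury and 374 and 425 CPM in larval epicardium, with a median log2 fold change of 0.82. In RNA all 4 lists had more genes higher than lower in the adult pulldown, where 12.1% of all genes were called higher and 26% lower. There 16 of 18 cardiomyocyte genes were higher and none lower, 10 and 1 of 16 endothelial genes, 9 and 2 of 14 erythrocyte genes, and 15 and 2 of 19 leukocyte genes. The part of other cells in the accessibility differences was not tested.

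Individual peaks of these lists were as follows. An intergenic peak near hand2, a transcription factor gene of the heart fields that epicardium also uses, had 12.3, 5.67, 4.67 and 10.3 CPM in cryoinjury, against 102 and 66.1 CPM in larval epicardium (-3.39 ± 0.36, adjusted p = 4.76e-09). An intron peak of sox7, an endothelial factor, was lower as well (-2.80 ± 0.41). The 3 higher leukocyte peaks, at lcp1, irf8 and cd74a, had log2 fold changes of 2.30, 2.93 and 2.25 and all lost their calls without larval library 1 (adjusted p = 0.115, 0.15 and 0.215), without larval library 2 (0.173, 0.181 and 0.22) and without cryoinjury library 3 (0.0521, 0.0819 and 0.0692). Another irf8 peak was lower (-1.40 ± 0.33), but not in edgeR's test of a minimum log2 fold change of 1 (adjusted p = 0.313).

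Pathways of the active epicardium had more lower than higher calls, as did all peaks (10.1% lower and 3.98% higher). For retinoic acid 23 of 139 peaks were lower (16.5%) and 4 higher (2.88%), for EMT regulators 18 of 100 (18%) and 3 (3%), and for Wnt, Notch and Hippo 52 of 318 (16.4%) and 3 (0.943%). Another 2 lists lay nearer to the share over all peaks, with 37 of 269 lower (13.8%) and 10 higher (3.72%) for TGF-beta and BMP, and 25 of 206 lower (12.1%) and 5 higher (2.43%) for paracrine factors. In the order given, their median log2 fold changes were -0.29, -0.60, -0.11, -0.24 and 0.04, against 0.07 over all peaks. Higher and lower calls were fewer in each of these lists with either larval library left out, as over all peaks. Such a fit leaves 1 larval library.

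In retinoic acid signalling the 23 lower calls were spread over 8 genes: the receptor genes raraa (6), rarab (3), rarga (3), rxraa (2) and rxrab (2), the synthesis genes aldh1a2 (4) and rdh10a (2), and the binding protein gene crabp2a (1). One intron peak of raraa had 7.94, 2.62, 10 and 6.17 CPM in cryoinjury, against 101 and 60.1 CPM in larval epicardium (-3.60 ± 0.39, adjusted p = 9.37e-09), and another had 15, 14.8, 11.7 and 11.3 CPM in cryoinjury, against 81.6 and 76.6 CPM in larval epicardium (-2.61 ± 0.33). Both were also lower in sham (-3.62 and -3.43). Of the higher peaks, a pair near dhrs3a, a retinaldehyde reductase gene, had log2 fold changes of 3.21 and 2.19, but neither was called without larval library 1 (adjusted p = 0.111 and 0.148).

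In TGF-beta signalling an intergenic peak near the ligand gene tgfb2 had 3.53, 3.92, 7.68 and 6.38 CPM in cryoinjury, against 98.4 and 107 CPM in larval epicardium (-4.15 ± 0.36, adjusted p = 3.8e-11). It was lower in sham as well (-3.58), while tgfb2 RNA did not pass the test (0.07, adjusted p = 0.955). Receptor genes followed, with intron peaks of bmpr2b (-2.97 ± 0.39) and the co-receptor tgfbr3 (-2.82 ± 0.41). Higher peaks at bmpr1ba, ltbp1 and ltbp3 lost their calls without one or the other larval library (adjusted p = 0.0605 for bmpr1ba and 0.151 for ltbp1 without larval library 1, and 0.178 for ltbp1 and 0.214 for ltbp3 without larval library 2).

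Among EMT regulators, a peak at the end of snai1b, a repressor of epithelial genes, had 40.6, 33.6, 20.7 and 22.6 CPM in cryoinjury, against 98.4 and 177 CPM in larval epicardium (-2.26 ± 0.33), and 2 intron peaks of cdh2 were lower (-2.12 ± 0.43 and -1.62 ± 0.34). Another snai1b peak was called higher (2.26), as were peaks at twist1b (2.05) and zeb1b (1.35). None of these higher peaks stayed called in edgeR's test of a minimum log2 fold change of 1 (adjusted p = 0.215, 0.145 and 0.457). The 2 lower cdh2 peaks did not stay called in it either (0.0504 and 0.167). These higher calls were also lost without larval library 1. The snai1b and zeb1b ones were lost with DESeq2 (adjusted p = 0.0647 and 0.0515) and without cryoinjury library 4 (0.104 and 0.0554). In the paracrine list the receptor gene fgfr4 had an intergenic peak at -3.22 ± 0.40 with lower RNA (-3.69, adjusted p = 0.000224). Peaks at igf1 (2.92) and cxcr4b (2.30 and 2.22) were called higher, but not in edgeR's test of a minimum log2 fold change of 1 (adjusted p = 0.117, 0.153 and 0.17). These calls were also lost without larval library 2. At cxcr4b the first was lost without cryoinjury library 3 (adjusted p = 0.0599) and the second without cryoinjury library 2 (0.053). Both promoter peaks of angptl4, a secreted inhibitor of lipoprotein lipase, were lower (-2.55 ± 0.37 and -2.17 ± 0.37), also in sham (-3.45 and -3.10), with lower RNA (-4.65, adjusted p = 0.00096). In the Wnt pathway the receptor gene fzd7a (-3.39 ± 0.36), the repressor gene tcf7l1a (-3.39 ± 0.37) and the feedback inhibitor gene axin2 (-2.86 ± 0.36) each had a lower peak that stayed called under all alternatives. The fzd7a peak had 8.82, 10.9, 8.35 and 7.61 CPM in cryoinjury, against 67.1 and 120 CPM in larval epicardium. In the same list, peaks at tead3a, dkk1a (2.79) and notch2 (2.19) were called higher. The tead3a call was lost without larval library 1. Those at dkk1a and notch2 were lost in edgeR's test of a minimum log2 fold change of 1 (adjusted p = 0.157 and 0.209), and also without larval library 1 or 2. The dkk1a call was lost with DESeq2 (adjusted p = 0.0755) and without cryoinjury library 4 (0.0514). The notch2 call was lost without cryoinjury library 2, 3 or 4 (0.0585, 0.0685 and 0.0536).

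The list of larval and oncofetal regulators had the highest share of lower calls of the 18 lists, 19 of 87 peaks (21.8%, against 10.1% of all peaks), with 3 higher. The lists were chosen with earlier results of these data known, so this rank is a description only. Lower and higher calls of this list were fewer with either larval library left out, as over all peaks. Part of its lower peaks are the igf2bp peaks above. A peak near sall4, a stem cell factor gene, was higher, with 43.2, 26.2, 30.7 and 32.5 CPM in cryoinjury, against 8.95 and 3.00 CPM in larval epicardium (2.37 ± 0.48). In sham that sall4 peak was lower than in tbx18 larval epicardium (-1.46, adjusted p = 0.00197). Hox peaks gave 0 higher and 1 lower calls of 23, and the lower one, at hoxa3a (-2.26), was lost without larval library 1 (adjusted p = 0.174).

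Factors of the immediate-early response had 6 higher (4.29%) and 21 lower (15%) calls of 140 peaks, against 3.98% and 10.1% of all peaks. At mafba, a bZIP transcription factor gene, an intergenic peak was higher (15, 34.9, 42.7 and 26.5 CPM in cryoinjury, against 4.47 and 1.5 CPM in larval epicardium, 3.24 ± 0.68), and 2 others were lower (-2.71 ± 0.34 and -2.72 ± 0.34). All 3 kept these signs in sham (3.83, -1.14 and -1.89). A peak near ier2, an immediate-early gene, was lower (-2.76 ± 0.36). In RNA, 21 of the 27 genes of this list were lower in cryoinjury nuclei than in sorted larval cells and none was higher, against 26% lower and 12.1% higher of all genes. Higher calls of the list were fewer with either larval library left out, as over all peaks.

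Circadian clock genes had 3 higher (2.01%) and 23 lower (15.4%) calls of 149 peaks, against 3.98% and 10.1% of all peaks. Both were fewer with either larval library left out, as over all peaks. With total-count scaling the clock list had 4 higher and 17 lower calls. An intron peak of rorab, a nuclear receptor gene that drives clock transcription, had 7.06, 7.85, 4.01 and 9.05 CPM in cryoinjury, against 60.4 and 45.1 CPM in larval epicardium (-2.90 ± 0.37), and a peak of bhlhe40, a clock repressor gene, was lower (-2.28 ± 0.43). Another rorab peak was called higher (3.04), as were peaks at rorca (2.40) and per2 (2.52). None of these higher peaks stayed called in edgeR's test of a minimum log2 fold change of 1 (adjusted p = 0.0629, 0.125 and 0.173). Their calls were also lost without larval library 1 or 2. The per2 call was lost with DESeq2 (adjusted p = 0.0624) and without cryoinjury library 4 (0.0763). Hormone receptors and targets had 2 higher (2.17%) and 5 lower (5.43%) calls of 92, both shares below those of all peaks, among them a lower intron peak of the vitamin D receptor gene vdrb (-2.57 ± 0.40). Cell cycle and DNA replication genes had 2 higher (2.06%) and 6 lower (6.19%) calls of 97, again below all peaks, with a lower promoter peak of ccnd1, the cyclin D1 gene (-2.08 ± 0.35). Scaled by total count, the hormone list had 3 higher and 3 lower calls and the cell cycle list 8 higher and 3 lower. Lower calls then outnumbered higher ones in neither list, when 8.59% of all peaks were called higher and 6.19% lower. Higher and lower calls of the hormone list were fewer with either larval library left out, as over all peaks. The same held for the cell cycle list without larval library 2.

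Complement, antigen presentation and interferon genes were the list with the highest share of higher calls, 4 of 46 peaks (8.7%, against 3.98% of all peaks), with 2 lower. That list too was chosen with earlier results of these data known. Its higher calls were fewer with either larval library left out, as over all peaks. The promoter peak of b2m, the invariant chain of MHC class I, had 28.2, 41.4, 35.1 and 28.2 CPM in cryoinjury, against 4.47 and 3.00 CPM in larval epicardium (3.11 ± 0.58, adjusted p = 0.000141). It stayed called under all alternatives, was higher in sham than in tbx18 larval epicardium (2.67, adjusted p = 4.33e-05), and b2m RNA was higher (4.74, adjusted p = 6.05e-06). An intergenic peak annotated to b2m was lower, with 5.29, 7.41, 3.01 and 6.17 CPM in cryoinjury, against 35.8 and 25.5 CPM in larval epicardium (-2.49 ± 0.45, adjusted p = 9.18e-05). The promoter of mhc1zba, an MHC class I gene, was called higher (2.16 ± 0.60, adjusted p = 0.011), but not without larval library 1 or 2 (adjusted p = 0.121 and 0.106), and mhc1zba RNA was lower (-1.89, adjusted p = 0.00635).

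Fibroblast, mural and matrix genes were the largest list with equal numbers, 11 higher and 11 lower of 226 peaks (4.87% each, against 3.98% and 10.1% of all peaks, with a median log2 fold change of 0.31). Higher calls of the list were fewer without larval library 1 or 2, as over all peaks. With total-count scaling 22 were higher and 7 lower, when 8.59% of all peaks were called higher and 6.19% lower. Lower peaks that stayed called when either larval library was left out included those of the collagen genes col6a1 (-2.19 ± 0.39) and col12a1a (-2.02 ± 0.37) and of loxl2a, a lysyl oxidase gene (-2.21 ± 0.41). The higher peaks at kcne4, a potassium channel subunit gene, hapln1a, a hyaluronan link protein gene, and cspg4, a pericyte proteoglycan gene, had log2 fold changes of 2.41, 2.54 and 2.88. The calls at hapln1a and cspg4 were lost without larval library 1 (adjusted p = 0.0584 and 0.0984), and those at kcne4 and cspg4 without larval library 2 (adjusted p = 0.0657 and 0.0555).

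**Figure D5:**
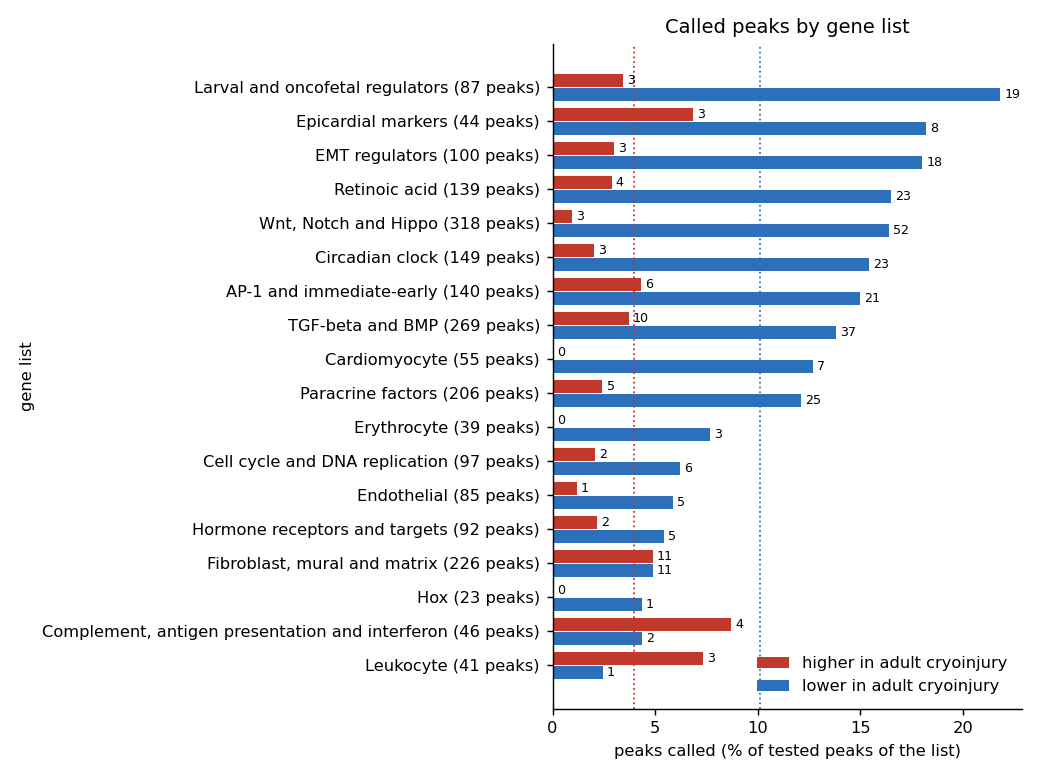
Share of tested peaks called higher (red) and lower (blue) in adult cryoinjury than in larval epicardium, in % of the peaks annotated to the genes of each list, with the number of called peaks at each bar. Dotted lines mark the shares over all peaks, 3.98% higher and 10.1% lower. Oncofetal regulators, epicardial markers and EMT regulators have the longest blue bars with this TMM scaling. The lists were chosen with earlier results of these data known. With total-count scaling epicardial markers had 5 higher and 5 lower calls, when 8.59% of all peaks were called higher and 6.19% lower.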

How the data were processed

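The values deposited by the authors were raw read counts over 61954 ATAC peaks shared by all libraries and over 31275 genes in RNA. Per the submitters' processing notes, tools included Bowtie 1.2.3, SAMtools 1.10, MACS2 2.2.7.1, HOMER, DiffBind 3.0.13, STAR 2.7.3a, featureCounts and edgeR 3.32.1, with the build GRCz10. How reads matching several places were treated is not given in the sources used here. Peak GC content was a deposited fraction (0 to 1), and 14 deposited per-sample FPKM columns were not used. Peaks span 501 bases in 95% of cases. Names of annotated genes were looked up in the RNA table and found for 56276 peaks.

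All 14 ATAC libraries were fitted together, and the RNA libraries likewise, in edgeR 4.0.16 under R 4.3.3 (two-sided quasi-likelihood F test, glmQLFTest) with TMM scaling, filterByExpr (minimum count 10, minimum total 15), 1 mean per group and Benjamini-Hochberg adjustment; 61883 peaks passed. The ± after a log2 fold change is its standard error, taken as its size over the square root of F. Where all libraries of a group had few counts, an exact binomial interval on the summed counts was used. Such intervals cover counting error only and take every count as an independent read. Even counts outnumbered odd ones 1.55 and 1.95 times in the larval libraries, so these intervals may be too narrow. The test was tried on simulated counts with known changes. Alternatives were DESeq2 1.42.0, other scalings, filters, trends removed, halved or thinned counts, the compared groups alone and leaving out each library.

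Peaks were named by rule: the 10 largest fold changes in each direction among called peaks with at least 5 CPM and groups that do not overlap, the genes with the most called peaks, up to 3 called peaks per direction of each of 18 gene lists, and the peak nearest the start of each epicardial marker. The members and lists were chosen with earlier results of these data known. The tbx18 epicardium comparison, the chromosome 23 stretch, the largest peaks outside it (fgf12a and cnpy1) and, among genes with several called peaks, those beyond the first 5 in each direction were added after seeing the data. Motifs and sequences were not analysed here. Of the peaks named by rule, 1 is not reported here.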

Additional observations from a re-analysis of the deposited data

Results flagged for a closer look

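Of 126 sets of 4 cryoinjury values (122 named peaks and 4 measures per library), 8 had 1 library that stood apart, all of them peaks, measured as its gap to the nearest other library over the whole range, by Dixon's 95% criterion. Chance alone flags about 1 in 20 such sets. The value was 0.881 for the igf2bp1 intron peak and 0.905 for the ddx3b peak. It was 0.871 for the zgc:153284 peak at chr23:31498440-31498940, 0.849 for the higher irf8 peak, 0.856 for bmpr1ba, 0.92 for the igf2bp3 promoter, 0.853 for klf9 and 0.86 for the wt1b promoter. The library apart had 8.82 CPM at ddx3b, against 0.436 to 1.23 CPM in the other 3, and 39.7 CPM at bmpr1ba, against 17.9 to 21 CPM.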

How the results depend on the processing

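Cryoinjury against larval epicardium gave 2463 higher and 6222 lower calls. Outside a factor of 1.5 lay 5317 higher and 3828 lower with total-count scaling, 1510 higher with DESeq2 and 1424 higher with halved counts. A minimum log2 fold change of 1 left 1695 in all (237 and 1458). Leaving out 1 library gave 473 to 2544 higher, 3413 to 6664 lower and 3886 to 9208 in all. Sham against tbx18 larval epicardium gave 13484 in all (8421 and 5063) with the minimum fold change, and between 15404 and 17938 in all, with 8658 to 10296 higher, without 1 of its 4 libraries. RNA gave 12100 calls, 9435 lower, with no filter, and 2525 lower with the abundance trend removed and 3489 lower with the compared groups alone. The promoter difference was 0.54 with the abundance trend removed. The cause of these shifts was not tested.

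The tbx18 promoter peak turned to 0.02 with the GC trend removed and 0.10 with the replicate block and GC trend removed. Replicate numbers did not pair libraries: correlations of deviations were -0.041 and -0.003 for the 2 shared numbers. The replicate block gave 3641 calls (883 higher, 2758 lower), and with the GC trend removed 3171 (855 and 2316). Of the 118 named peaks that were called, 72 kept call and direction in all alternatives other than the minimum fold change and the block. Depth limits what can be resolved at the 20.4% and 30.8% of peaks with 3 counts or fewer in the larval libraries. Even counts outnumbered odd ones 1.04 to 1.1 times in cryoinjury libraries, and 1.55 and 1.95 times in tcf21 larval epicardium ones. The ratio was 3.41 and 2.46 in tbx18 larval epicardium, and 2.55 and 2.05 in tbx18 larval non-epicardium. The alternative with halved counts halved every library alike, so it does not remove an excess of even counts that differs between groups. Comparisons with tbx18 libraries were not run on halved counts.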
